A study of Mus musculus with 32 samples.

Results

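The 9 genes described here make the machinery that cuts proteins into peptides and loads them onto MHC class I molecules: Psmb8, Psmb9 and Psmb10, Tap1 and Tap2, Tapbp, B2m, Erap1 and Nlrc5. They were taken as every probe set whose symbol in the array's probe-to-gene table was 1 of these 9, which gave 9 of the 18193 genes on the array and 16 of its 45037 probe sets. Tap1 had 4 probe sets, Psmb8, Tapbp, B2m and Erap1 had 2 each, and the other 4 genes had 1 each. The rule used symbols only and no measured value.

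Peripheral lymph node, mesenteric lymph node, spleen and thymus were taken from 8 female C57BL/6 mice at 12 weeks of age, and total RNA of each tissue was hybridised to an Affymetrix expression array, giving 32 arrays. Of the mice, 4 carried the CD2-CD30L transgene, meant to overexpress CD30 ligand (a TNF family protein, gene symbol Tnfsf8) constitutively in T cells, and 4 were their non-transgenic littermates, called wild type below. Each mouse gave all 4 tissues, so every group of a tissue and a genotype held 4 arrays. The labels do not give the number of transgenic founder lines, and the samples are whole tissues, in which fewer cells of a type and less RNA per cell cannot be told apart.

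Nucleated cells show fragments of their own proteins on MHC class I for CD8 T cells to inspect. The proteasome cuts the proteins, and in lymphoid tissue and under interferon its catalytic subunits Psmb5, Psmb6 and Psmb7 are replaced by the immunosubunits Psmb8, Psmb9 and Psmb10. The transporter formed by Tap1 and Tap2 carries the peptides into the endoplasmic reticulum, where the aminopeptidase Erap1 trims them and tapasin (Tapbp) holds the transporter beside the class I heavy chain and its light chain, beta-2 microglobulin (B2m). Nlrc5 is the transactivator of many of these genes, and thymic cortical epithelium has a catalytic subunit of its own, Psmb11.

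On chromosome 17, inside the mouse MHC, the RefSeq order was Tapbp, Psmb9, Tap1, Psmb8, Tap2. No protein-coding gene lay between neighbours from Psmb9 to Tap2, whereas 17 lay between Tapbp and Psmb9. Psmb10 and Nlrc5 were on chromosome 8, B2m on chromosome 2 and Erap1 on chromosome 13. RefSeq promoter windows of build GRCm38.p6, reaching from 250 bases before the start of the gene to 50 after it, were matched by symbol for 7 of the 9 genes. Psmb9 and Tap1 start 226 bases apart on opposite strands, and their windows share 275 bases. Stretches of 4 windows are shown because they hold the matches to interferon and kappaB motifs, or, for Tap1, the start region shared with Psmb9. Positions count from the start of the gene, with no base numbered 0, and capitals mark matches to any of the 6 motifs searched.
B2m, chr2:122147537-122147706, plus strand, from -150 to 20: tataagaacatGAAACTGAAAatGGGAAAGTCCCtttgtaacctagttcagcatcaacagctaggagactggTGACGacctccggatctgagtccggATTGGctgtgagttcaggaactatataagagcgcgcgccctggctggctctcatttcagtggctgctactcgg
Erap1, chr13:74639703-74639872, plus strand, from -150 to 20: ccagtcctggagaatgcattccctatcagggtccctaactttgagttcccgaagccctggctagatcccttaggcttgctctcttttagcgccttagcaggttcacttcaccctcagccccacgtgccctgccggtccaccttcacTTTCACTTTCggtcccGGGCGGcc
Psmb8, chr17:34198045-34198214, plus strand, from -150 to 20: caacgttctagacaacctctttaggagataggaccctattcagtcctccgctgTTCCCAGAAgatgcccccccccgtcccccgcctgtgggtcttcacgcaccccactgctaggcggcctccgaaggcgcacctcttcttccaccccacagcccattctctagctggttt
Tap1, chr17:34187306-34187575, plus strand, from -250 to 20: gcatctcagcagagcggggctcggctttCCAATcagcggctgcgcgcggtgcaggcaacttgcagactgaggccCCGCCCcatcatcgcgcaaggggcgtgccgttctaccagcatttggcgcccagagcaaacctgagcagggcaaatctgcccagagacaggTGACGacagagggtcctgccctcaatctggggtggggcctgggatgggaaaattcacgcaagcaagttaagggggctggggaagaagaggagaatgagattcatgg

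The motifs were searched as exact letters on both strands. The core of the interferon-stimulated element, GAAA repeated after any 2 bases, was in 2 of the 7 windows (B2m from -139 to -130, Erap1 from -4 to 6) and in 3.44% of all 32851 windows of that length. The interferon gamma activated element, TTCNNNGAA, was in the Psmb8 window only, from -97 to -89, and in 8.3% of all windows. A loose kappaB element, GGGA and then CC after any 4 bases, was in the B2m window on both strands, the matches overlapping between -127 and -117, and in 20.7% of all windows. The CCAAT box was in 4 of the 7 windows and in 37.4% of all. The core TGACG of the cyclic AMP response element was in 3 and in 20.8% of all. The Sp1 letters GGGCGG were in 4 and in 35.7% of all. These last 3 kinds of match in Tap1 and in Psmb9 are the same bases read from opposite strands. The Psmb10 window held none of the 6. These matches are letters in a window, and no binding was measured.

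**Figure D1:**
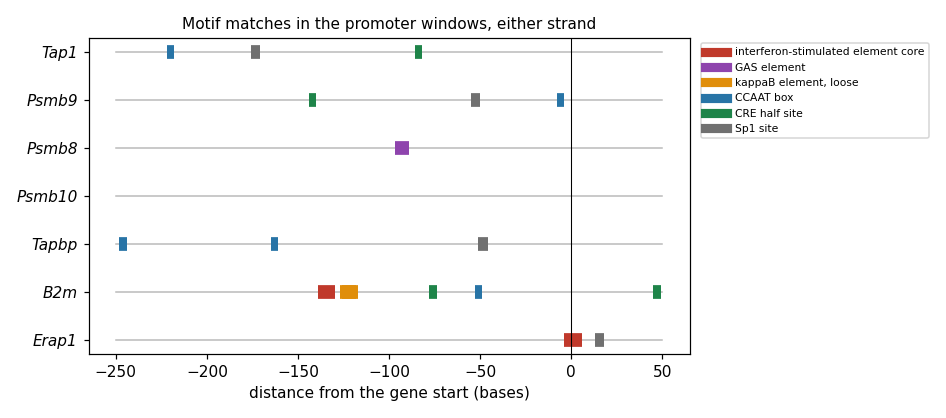
Positions of the motif matches in the promoter windows of 7 genes, on either strand. The horizontal axis is the distance in bases from the start of the gene and each coloured block is a match. Interferon-stimulated element cores are in the B2m and Erap1 windows only, and the Psmb10 window is empty.

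The scale throughout is log2 of the deposited intensity plus 16, with negative intensities set to 0, so a value of 4 is the floor. Of the 16 probe sets, 13 passed the filter on low values (a mean above the 40th percentile) in every tissue, and all 9 genes were among them. The 3 that did not pass were all Tap1 probe sets, whose highest values were 5.58, 5.70 and 5.83, near the floor, against 9.62 to 11.04 for the Tap1 probe set used. Where a gene had more than 1 probe set, the value given is that of the probe set with the highest mean, unless another is named.

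Markers of thymus and spleen followed the tissue labels. All 8 T cell markers and 6 of 7 thymocyte markers were higher in wild type thymus than in peripheral lymph node, all 7 B cell markers were lower there, and summed erythroid marker intensity was 7295 to 23509 in spleen against 68.3 to 292 in the other tissues. Some arrays carried transcripts of neighbouring tissue: summed exocrine pancreas marker intensity reached 73687 in mesenteric lymph node, and that of skeletal muscle 14784 in peripheral lymph node. Signal from the 3' end of Actb relative to its 5' end, which goes up as RNA degrades, was 2.83 to 3.58 in the spleens of mice 1 and 2 of both genotypes, against 1.65 to 1.85 in those of mice 3 and 4. Tnfsf8 itself was not higher in transgenic arrays (differences of -0.10 to 0.07 over the 4 tissues, adjusted p of 0.894 to 0.984). Whether its probe set lies inside the transgene is not given in the sources used here, so it neither checks nor contradicts the labels.

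**Figure D2:**
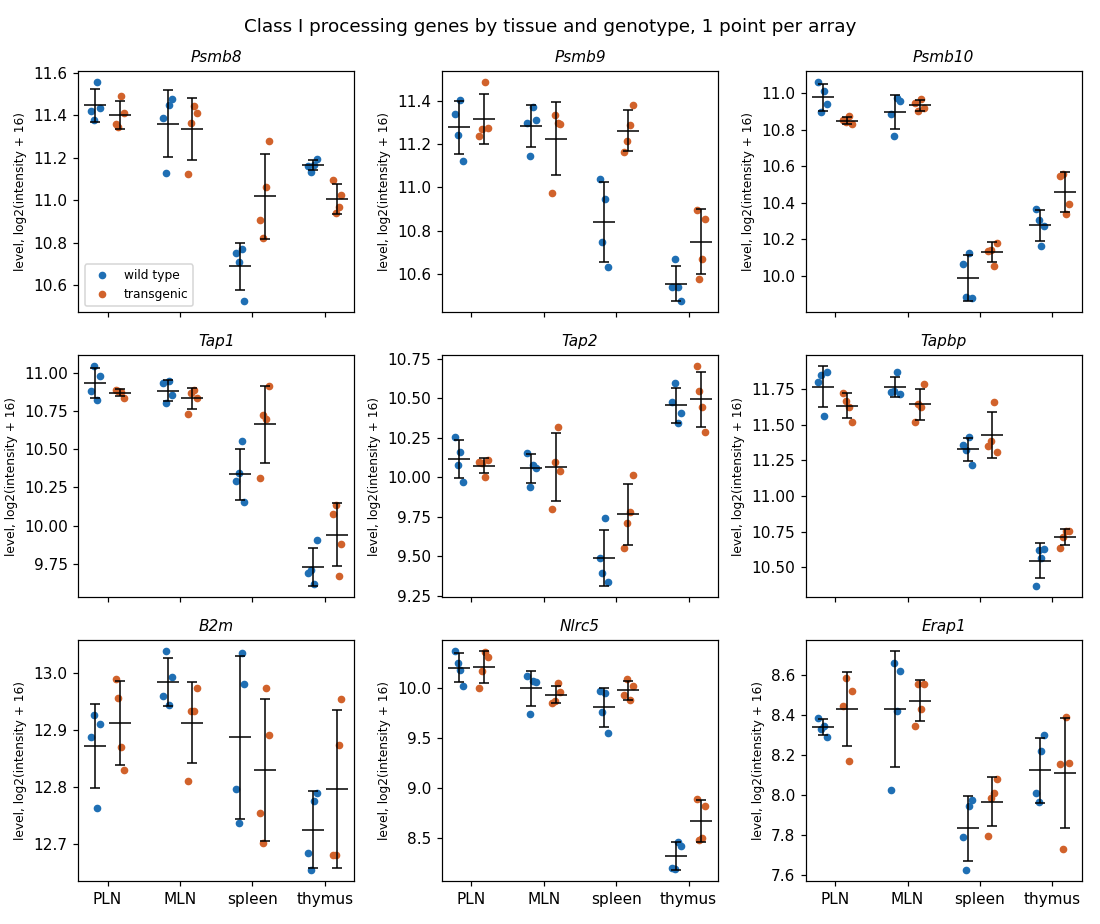
Level of each gene, log2 of intensity plus 16 after quantile normalization over all 32 arrays, by tissue (PLN, peripheral lymph node; MLN, mesenteric lymph node) and genotype. Each point is 1 array, and lines give the mean and SD of 4 mice; the vertical axes differ between panels and do not start at 0. Nlrc5, Tap1 and Tapbp are lowest in thymus, Psmb10 is lowest in spleen, and Tap2 is highest in thymus.

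In wild type mice, 6 of the 9 genes were lower in thymus than in peripheral lymph node and Tap2 was higher, with a median difference over the 9 of -0.70 against -0.01 for all probe sets tested. Over the 13 probe sets tested, 7 were lower, where 28.7% of all probe sets were lower, and 1 was higher, where 28.4% were higher. Between spleen and peripheral lymph node 8 of the 9 genes were lower in spleen (9 of 13 probe sets, where 21% of all were lower) and none was higher, where 17.8% were; the median over the genes was -0.51 against -0.06. Between the 2 lymph nodes none of the 13 probe sets passed the test in limma, where 2.19% of all did, 1 had an unadjusted p under 0.05, and the smallest adjusted p was 0.191. These comparisons share their peripheral lymph node arrays.

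Psmb9, Psmb10 and Psmb8, the immunosubunits, did not share 1 order of tissues. Psmb9 stood at 11.12 to 11.40 in the 4 wild type peripheral lymph nodes, at 10.63 to 11.04 in spleen and at 10.47 to 10.67 in thymus. Wild type spleen and thymus arrays did not overlap with wild type lymph node arrays. Transgenic spleens, at 11.16 to 11.38, did overlap with transgenic lymph nodes, at 10.97 to 11.49. Wild type thymus was 1.65-fold lower than peripheral lymph node (-0.72 ± 0.10 SE, limma adjusted p = 4.91e-05). Psmb10 was instead lowest in spleen, at 10.07, 9.88, 10.13 and 9.88 in the 4 wild type mice, against 11.06, 10.90, 11.01 and 10.94 in peripheral lymph node. That 1.98-fold difference (-0.99 ± 0.09, adjusted p = 6.08e-06) was larger than the 1.62-fold difference of thymus (-0.70 ± 0.09, adjusted p = 3.14e-05). Psmb8 was also lowest in spleen: it was 1.69-fold lower in spleen (-0.76 ± 0.09, adjusted p = 6.72e-05) and 1.22-fold lower in thymus (-0.28 ± 0.09, adjusted p = 0.0206). The second Psmb8 probe set gave -0.86 ± 0.28 in spleen (adjusted p = 0.0275) and -0.62 ± 0.28 in thymus (adjusted p = 0.0727). The thymus call for Psmb8 was lost without mouse 1 (adjusted p = 0.0902) or mouse 3 (adjusted p = 0.125). In transgenic mice Psmb8 was not lowest in spleen, with means of 11.02 there and 11.01 in thymus.

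Tap1 and Tap2, which pair as 1 transporter, differed in direction in thymus. Tap1 was 9.69, 9.71, 9.62 and 9.91 in the 4 wild type thymi against 10.88, 11.04, 10.82 and 10.98 in peripheral lymph node, 2.30-fold lower (-1.20 ± 0.11, adjusted p = 1.96e-06). Tap2 was 10.48, 10.60, 10.34 and 10.41 in the same thymi against 10.25, 10.08, 10.16 and 9.97 in peripheral lymph node. All 4 thymi were above all 4 lymph nodes for Tap2, a 1.27-fold rise (0.34 ± 0.10, adjusted p = 0.0143). In spleen both were lower than in peripheral lymph node, Tap1 by 1.51-fold (-0.60 ± 0.11, adjusted p = 0.00125) and Tap2 by 1.54-fold (-0.63 ± 0.10, adjusted p = 0.000624). Transgenic mice gave the same directions in thymus, -0.93 ± 0.13 for Tap1 (adjusted p = 7.96e-05) and 0.42 ± 0.14 for Tap2 (adjusted p = 0.0226). The wild type Tap2 rise in thymus kept its direction but not its call under a common median (0.13, adjusted p = 0.561), without normalization (0.16, adjusted p = 0.687) and without mouse 2 (0.28, adjusted p = 0.0691) or mouse 4 (0.31, adjusted p = 0.0797).

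Among the endoplasmic reticulum members, tapasin moved and B2m hardly did. Tapbp stood at 10.37, 10.62, 10.56 and 10.63 in wild type thymus against 11.80, 11.85, 11.56 and 11.87 in peripheral lymph node, 2.33-fold lower (-1.22 ± 0.10, adjusted p = 8.99e-07), and it was 1.36-fold lower in spleen (-0.44 ± 0.10, adjusted p = 0.00506). The second Tapbp probe set was more variable (SD up to 0.74 in a group) and was not called in either comparison (-0.20 ± 0.35 in thymus, adjusted p = 0.655, and -0.12 ± 0.35 in spleen, adjusted p = 0.808). Leaving out mouse 4 took the Tapbp spleen difference to -0.37 (adjusted p = 0.0509). Erap1 was 1.42-fold lower in spleen (-0.51 ± 0.13, adjusted p = 0.00900) and was not called in thymus (-0.22 ± 0.13, adjusted p = 0.176), and its second probe set was called in neither (-0.17 ± 0.17 and -0.25 ± 0.17). B2m had group means between 12.73 and 12.98 in wild type, a range of 1.20-fold, with thymus -0.15 ± 0.09 (adjusted p = 0.188) and spleen 0.02 ± 0.09 (adjusted p = 0.913) from peripheral lymph node. Its second probe set was lower in thymus (-0.23 ± 0.08, adjusted p = 0.0328). B2m intensity was 4868 to 9544, or 46.1% to 75.6% of the brightest probe set on its array, and whether that brightness compressed its differences was not tested.

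Nlrc5, the class I transactivator, differed most between tissues of the 9, with a 3.68-fold range of wild type means. It was 8.21, 8.20, 8.46 and 8.43 in the 4 wild type thymi, against 10.36, 10.24, 10.17 and 10.02 in peripheral lymph node (-1.88 ± 0.12, adjusted p = 8.28e-08) and 9.97, 9.76, 9.95 and 9.55 in spleen. No thymus array of either genotype came near any other tissue, since the highest was 8.89 and the lowest elsewhere 9.55. Transgenic mice gave -1.53 ± 0.12 for thymus against peripheral lymph node (adjusted p = 6.41e-07). The smaller wild type difference between spleen and peripheral lymph node (-0.39 ± 0.12, adjusted p = 0.0205) lost its call when any 1 mouse was left out (-0.45 to -0.36, adjusted p from 0.0532 to 0.0733).

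**Figure D3:**
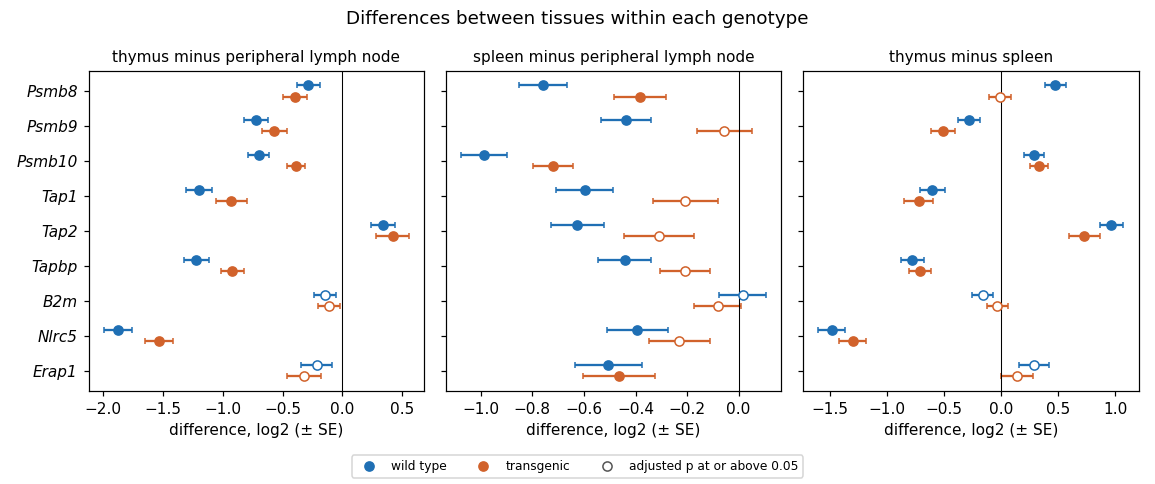
Differences between tissues for the 9 genes, in log2, with SE from limma over 4 mice of each genotype; filled points passed the threshold and open points did not. In thymus against peripheral lymph node Nlrc5 (-1.88 and -1.53), Tapbp and Tap1 are farthest to the left and Tap2 (0.34 and 0.42) is on the right.

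Set directly against spleen, thymus was lower for 4 genes and higher for 3 in wild type mice. The lower genes were Nlrc5 (-1.48 ± 0.12, adjusted p = 6.74e-07), Tapbp (-0.78 ± 0.10), Tap1 (-0.60 ± 0.11) and Psmb9 (-0.28 ± 0.10, adjusted p = 0.0284). The higher genes were Tap2 (0.97 ± 0.10, adjusted p = 9.21e-06), Psmb8 (0.48 ± 0.09, adjusted p = 0.00107) and Psmb10 (0.29 ± 0.09, adjusted p = 0.0172). Over the 13 probe sets that is 5 lower (23.6% of all were lower) and 3 higher (26.4% of all were higher). Under a common median the split was 4 lower and 1 higher, and without normalization 4 lower and none higher. The background moved too: of all probe sets called, 52.8% were higher in thymus after quantile normalization, 48.7% under a common median and 27.9% without normalization. Psmb10 was no longer called under either (0.25, adjusted p = 0.228, and 0.03, adjusted p = 0.957), nor was Psmb8 (0.41, adjusted p = 0.0547, and 0.19, adjusted p = 0.643) or Psmb9 (-0.32, adjusted p = 0.142, and -0.54, adjusted p = 0.143). Psmb9 also lost its call without mouse 1 (-0.21, adjusted p = 0.212) or mouse 3 (-0.24, adjusted p = 0.149), and Psmb10 without mouse 1, 2 or 4 (0.24 to 0.29, adjusted p from 0.0912 to 0.0948).

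Against mesenteric lymph node, wild type thymus was lower for 8 of 13 probe sets, where 26.4% of all were, and higher for 1, where 28.6% were, and spleen was lower for 8, where 18.2% were, and higher for none, where 16.6% were. Scaling to a common median moved the median of all probe sets from -0.01 to -0.12 for thymus against peripheral lymph node and from -0.06 to -0.14 for spleen. On that scale thymus against peripheral lymph node had 10 lower and none higher, and thymus against mesenteric lymph node 8 lower and none higher. Without normalization 5 of 13 probe sets passed for thymus and 1 for spleen against peripheral lymph node, all lower. At that setting the median of all probe sets was -0.09 for thymus and 0.11 for spleen. Of all probe sets called, 43.3% were then higher in thymus (49.8% after quantile normalization) and 71.5% were higher in spleen (45.9%).

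The order of tissues in wild type, by the means, was peripheral lymph node, mesenteric lymph node, spleen, thymus for Tap1, Tapbp and Nlrc5. For Nlrc5 only the last step passed the test (adjusted p = 0.430, 0.242 and 6.74e-07 for the 3 steps). For Tap1 (adjusted p = 0.874, 0.00257 and 0.000646) and Tapbp (adjusted p = 0.986, 0.00635 and 4.87e-05) the last 2 steps passed. Psmb8 and Psmb10 had thymus before spleen, and the step from mesenteric lymph node to thymus was passed by Psmb10 (adjusted p = 9.13e-05) and not by Psmb8 (adjusted p = 0.0930). Psmb9 did not pass the test between the lymph nodes (adjusted p = 0.989), with spleen below them (adjusted p = 0.00393) and thymus last. For Tap2 thymus led, followed by the lymph nodes, which were not separated (adjusted p = 0.826), and spleen (adjusted p = 0.00149). No neighbours in the order differed beyond the test for B2m (adjusted p = 0.188 to 0.913) or Erap1 (adjusted p = 0.0823 to 0.774).

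In transgenic mice, whose tissues were fitted apart from those of wild type mice, thymus against peripheral lymph node again had 7 probe sets lower (24.8% of all) and 1 higher (23.9% of all). Spleen against peripheral lymph node had none higher (10.7% of all) and 3 lower (13.9% of all), namely Psmb10 (-0.72 ± 0.08), Erap1 (-0.46 ± 0.14) and Psmb8 (-0.38 ± 0.10), where wild type had 9. Spleen against mesenteric lymph node had 3 lower (14.3% of all) and none higher (13.1% of all). Thymus against mesenteric lymph node had 8 lower (25.1% of all) and 1 higher (26.3% of all), and thymus against spleen had 5 lower (22.7% of all) and 2 higher (25.2% of all). Between the transgenic lymph nodes none passed in limma, where 0.751% of all did, and 1 had an unadjusted p under 0.05. The difference of these differences, tested within mice, was not called for any of 13 probe sets in any of the 6 pairs of tissues. On that test 0% of all probe sets were called in 5 of the pairs and 0.0111% in thymus against spleen. For spleen against peripheral lymph node 3 of the 13 had an unadjusted p under 0.05, where 7.6% of all did. Psmb9 and Psmb8 led there, with 0.38 ± 0.13 (adjusted p = 0.593) and 0.38 ± 0.15 (adjusted p = 0.613). Over the 6 pairs 10 of 78 tests had an unadjusted p under 0.05 and the smallest adjusted p was 0.478. The other counts of 13 were 0 between the lymph nodes (5.4% of all), 1 for thymus against peripheral lymph node (9.71%), 2 for spleen (5.96%) and 2 for thymus (5%) against mesenteric lymph node, and 2 for thymus against spleen (8.46%). The 2 for thymus against spleen were both Psmb8 probe sets. Their values were -0.49 ± 0.15 (limma adjusted p = 0.556), with the smallest unadjusted p of the 78 tests, and -0.71 ± 0.27 (adjusted p = 0.577).

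Other cell types moved with these tissue differences. In wild type thymus against peripheral lymph node, 10 of 11 dendritic cell and macrophage markers were lower (median -1.36) and summed B cell marker intensity was 509 to 713 against 15725 to 23900, with Pax5 and Cr2 at or under the added 16. In spleen all 8 T cell markers were lower than in peripheral lymph node (median -1.59), and 5 of 6 erythroid markers were higher (median 5.74). All 8 cell cycle markers were higher than in peripheral lymph node in both tissues (medians 3.32 in thymus and 2.47 in spleen). The part of these cells in the members' differences was not tested.

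The constitutive catalytic subunits did not fall with the immunosubunits. In wild type thymus against peripheral lymph node, Psmb7 (0.38 ± 0.10, adjusted p = 0.00615) and Psmb6 (0.33 ± 0.13, adjusted p = 0.0495) were higher and Psmb5 was not called (0.17 ± 0.12). In spleen none of the 3 was called. As a per-array summary, the mean log2 of Psmb8, Psmb9 and Psmb10 less that of Psmb5, Psmb6 and Psmb7 in wild type mice was 0.55 ± 0.10 (SD, n = 4) for peripheral lymph node, 0.38 ± 0.14 for mesenteric lymph node, -0.07 ± 0.23 for spleen and -0.31 ± 0.06 for thymus. Only the differences of this value between groups can be read, since probe sets differ in brightness. Every thymus array, from -0.41 to -0.16 over both genotypes, was below every lymph node array, from 0.18 to 0.66. Wild type spleens were 0.03, -0.02, 0.10 and -0.41, the last in mouse 4. Psmb11 was at 4.52 in the spleen of that mouse, a value near the floor, with the other spleens at the floor of 4. That spleen stood above the other 3 wild type spleens in the mean log2 level of thymocyte markers (7.26 against 5.80 to 6.29), thymic epithelial markers (6.51 against 5.75 to 5.88) and cell cycle markers (10.58 against 9.62 to 10.03). The same spleen was also highest in erythroid markers (10.98 against 10.11 to 10.68). By contrast it was lowest in T cell markers (9.04 against 9.06 to 9.21) and B cell markers (10.70 against 10.92 to 10.96). Dendritic cell and macrophage markers were lowest there too (9.45 against 9.50 to 9.84). The spleen of mouse 4 held the lowest wild type spleen values of Psmb8, Psmb9, Psmb10, Tap1, Tap2, Tapbp and Nlrc5, for Psmb10 by a small margin (9.880 against 9.883 in mouse 2). For B2m and Erap1 it did not. Without it the differences of spleen from peripheral lymph node were -0.69 for Psmb8, -0.39 for Psmb9 and -0.31 for Nlrc5, the last no longer called (adjusted p = 0.0725). In the pairs that replace each other, the wild type means of peripheral lymph node and thymus were 0.81 and -0.24 for Psmb9 less Psmb6, 0.05 and -1.03 for Psmb10 less Psmb7, and 0.79 and 0.33 for Psmb8 less Psmb5.

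**Figure D4:**
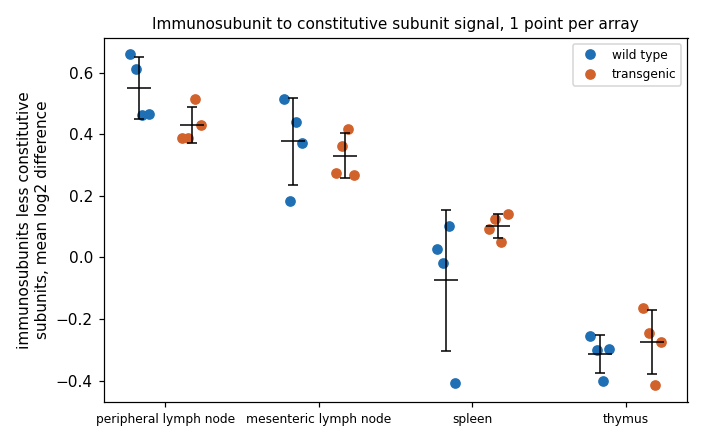
Mean log2 signal of the 3 immunosubunits less that of the 3 constitutive catalytic subunits, on each array, by tissue and genotype; lines give the mean and SD of 4 mice. Thymus arrays (-0.41 to -0.16) are below all lymph node arrays (0.18 to 0.66), and 1 wild type spleen stands at -0.41.

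Psmb11, the thymic subunit, stood at 9.85, 9.89, 9.58 and 9.53 in wild type thymi and 9.96, 9.93, 9.59 and 9.44 in transgenic thymi. It was at the floor on the arrays of other tissues except the mesenteric lymph node (4.43) and spleen (4.52) of wild type mouse 4, both still near the floor.

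The remaining genes of the pathway were read from lists chosen with earlier results of these data known. Of 11 other core proteasome subunits none passed the test in thymus against peripheral lymph node, and in spleen Psmb3 (-0.55) and Psma4 (-0.32) were lower and Psma5 (0.31) was higher. Among 8 proteasome activators and assembly factors, Psme1, a subunit of the interferon-inducible activator, was lower in thymus (-0.79 ± 0.10, adjusted p = 3.05e-05) with Psmg4 (-0.71), and Psmg1 was higher (0.59). In spleen Psmg4 (-0.68) and Psme1 (-0.35) were lower and Psme3 was higher (1.08), the Psme1 call being lost without the spleen of wild type mouse 4 (-0.28, adjusted p = 0.0546). Of 7 peptide loading chaperones 5 were lower in thymus and none higher (median -0.45), led by the chaperones Hspa5 (-0.84) and Calr (-0.47) with Bcap31 (-0.45). In spleen 2 were lower, the tapasin relative Tapbpl (-0.81) and Bcap31 (-0.46). Of 7 peptidases, thymus had Npepps higher (0.97) and Nln (-1.16) and Rnpep (-0.39) lower, and spleen had none called.

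Class I heavy chains were mixed. In wild type thymus 6 of 10 were lower than in peripheral lymph node and 2 were higher (median -0.56 against -0.01 for all probe sets), with H2-M3 (-2.18 ± 0.12) and H2-Q5 (-3.29 ± 0.39) lower and H2-Q2 higher (5.44 ± 0.23). The classical heavy chains H2-D1 (-0.65 ± 0.09, adjusted p = 5.97e-05) and H2-K1 (-0.47 ± 0.09, adjusted p = 0.000582) were lower. In spleen 3 were lower and 3 higher, among them H2-Q10 (-3.31) and H2-Q5 (-2.96) lower and H2-T3 (1.60) higher. These genes are a family of near copies, so their probe sets may share signal and the values of single genes are uncertain.

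Class I regulators in thymus against peripheral lymph node were 9 lower and 8 higher of 18 (median -0.15). The 3 with the smallest p were Irf8, an interferon regulatory factor of myeloid and B cells (-2.20 ± 0.11, adjusted p = 1.02e-08), Socs1, an inhibitor of cytokine signalling (2.09 ± 0.15, adjusted p = 2.01e-07), and Ciita, the class II transactivator and relative of Nlrc5 (-1.77 ± 0.14, adjusted p = 5.81e-07). Irf1, the interferon regulatory factor that binds the interferon-stimulated element, was 1.05 lower (adjusted p = 1.37e-05). In spleen Socs1 (-1.27), Irf1 (-0.62) and Rela (-0.32) were lower and Ifngr2 was higher (0.49).

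The transgene comparison asked whether CD30L overexpression changed these genes within a tissue. None of the 13 probe sets passed the test in limma in any tissue, where the share of all probe sets that passed was 0.037% for peripheral lymph node, 0% for mesenteric lymph node, 0.0111% for spleen and 0.0037% for thymus. At an unadjusted p under 0.05 the counts were 0, 0, 3 and 1 of 13, against 8.36%, 4.72%, 8.56% and 7.27% of all probe sets. The smallest adjusted p were 0.705, 0.972, 0.541 and 0.662. Over the 9 genes the differences, transgenic minus wild type, ran from -0.13 to 0.09 for peripheral lymph node, from -0.13 to 0.04 for mesenteric lymph node, from -0.06 to 0.42 for spleen and from -0.14 to 0.35 for thymus. For the brightest probe set of each gene, the 95% intervals lay between -0.35 and 0.38 in both lymph nodes. The second Tapbp probe set was far less precise, at 0.50 ± 0.33 in peripheral lymph node (interval -0.25 to 1.25, adjusted p = 0.735) and -0.63 ± 0.34 in mesenteric lymph node (interval -1.41 to 0.15, adjusted p = 0.972), against -0.13 in both for the brighter one. In spleen the upper bound for the brightest probe sets reached 0.69 and in thymus 0.64.

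**Figure D5:**
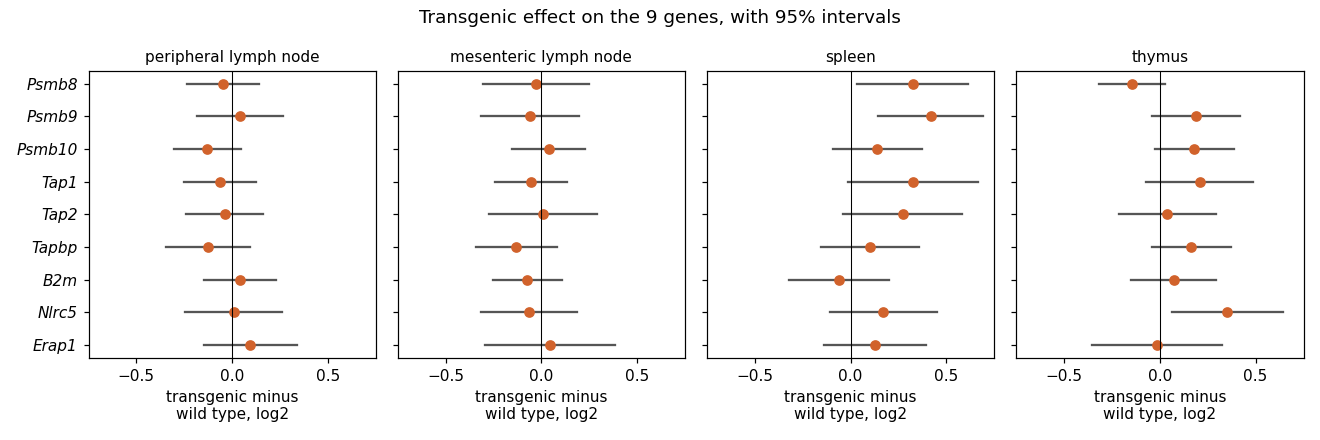
Transgenic minus wild type difference of the 9 genes in each tissue, in log2, with 95% intervals from limma over 4 mice of each genotype. Lymph node values lie between -0.13 and 0.09, and Psmb9 (0.42) and Psmb8 (0.32) in spleen and Nlrc5 (0.35) in thymus have intervals above 0 without passing adjustment.

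In spleen 8 of the 9 genes were above 0, with a median of 0.17 against 0.01 for all probe sets. Psmb9 was 11.09, 10.80, 10.99 and 10.69 in wild type and 11.21, 11.26, 11.34 and 11.43 in transgenic spleens (0.42 ± 0.12, limma adjusted p = 0.541). The genotypes did not overlap, and a single fit over all 32 arrays called Psmb9 (0.42, adjusted p = 0.0413), which none of the other 17 alternatives did. Psmb8 was 10.81, 10.76, 10.82 and 10.58 against 10.96, 10.87, 11.12 and 11.33 (0.32 ± 0.13, adjusted p = 0.565), also without overlap, and its second probe set gave 0.72 ± 0.21 (adjusted p = 0.541). Tap1 (0.32 ± 0.15) and Tap2 (0.27 ± 0.14) overlapped between genotypes, and B2m was at -0.06 ± 0.11. In all, 3 of 13 probe sets were without overlap and higher (that of Psmb9 and both of Psmb8), where 2.79% of all probe sets were. That share counts only probe sets higher in transgenic spleens, whereas the shares without overlap given for the other tissues count either direction.

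Other values moved with the spleen genotypes. Summed erythroid marker intensity was 17362 to 23509 in wild type and 7295 to 13977 in transgenic spleens, and the T cell markers had a median difference of 0.36 with 5 of 8 at an unadjusted p under 0.05. Summed cell cycle marker intensity was 10960 to 15616 in wild type and 7027 to 9456 in transgenic spleens. Among the mice with the higher Actb ratio (1 and 2) the median difference of the 9 genes was 0.17 and Psmb9 differed by 0.29. Among mice 3 and 4 the median was 0.19 and Psmb9 differed by 0.54. Without wild type mouse 4, whose spleen was the lowest of wild type for most members, the Psmb9 difference was 0.35 (adjusted p = 0.909). Of the regulators, Irf1 was 0.30 ± 0.13 (adjusted p = 0.583) and Socs1 0.60 ± 0.16 (adjusted p = 0.528). The part of the cell markers in the members' values was not tested.

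In thymus 7 of the 9 genes were above 0 (median 0.16 against -0.0001 for all probe sets). Nlrc5 was 8.16, 8.15, 8.42 and 8.38 in wild type and 8.84, 8.44, 8.46 and 8.78 in transgenic thymi (0.35 ± 0.13, adjusted p = 0.662). Every transgenic thymus was above every wild type thymus for Nlrc5 and, by a smaller margin, Tapbp (0.16 ± 0.09), and below every one for Psmb8 (-0.14 ± 0.08). These 3 of 13 probe sets compare with 4.6% of all probe sets without overlap. The class Ib heavy chain H2-M3 gave 0.66 ± 0.15 (adjusted p = 0.472, and 0.00258 in a single fit over all arrays) and Irf1 0.34 ± 0.11 (adjusted p = 0.636). Of 5 B cell markers tested 4 had an unadjusted p under 0.05 (median 0.72), with summed intensity of 509 to 713 in wild type and 609 to 1927 in transgenic thymi. Dendritic cell and macrophage markers had a median of 0.19, with 3 of 11 at an unadjusted p under 0.05 and summed intensity of 4276 to 5530 in wild type and 4097 to 7826 in transgenic thymi. The part of these cells in the members' values was not tested. Transgenic thymi of mice 1 and 2 had Actb ratios of 2.25 and 2.23 against 1.34 to 1.78 in the other thymi. Within mice 1 and 2 Nlrc5 differed by 0.48, and within mice 3 and 4 by 0.22.

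In peripheral lymph node Psmb10 was 11.21, 11.04, 11.16 and 11.09 in wild type and 11.00, 10.99, 11.02 and 10.97 in transgenic mice, without overlap but only 0.13 lower (-0.13 ± 0.08, adjusted p = 0.705). Leaving out the 3 arrays with the highest skeletal muscle markers took it to -0.072 (adjusted p = 0.844), and without normalization it was 0.029. It was the only member probe set without overlap there, where 5.35% of all were. No member probe set was without overlap in mesenteric lymph node, where 3.93% of all were.

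The correlations among the 9 genes differed between tissues, and that difference was not tested. Over the 8 arrays of a tissue, 33 of the 36 pairs of genes correlated positively in spleen (median r = 0.53), 29 in mesenteric lymph node (0.38), 21 in thymus (0.24) and 16 in peripheral lymph node (-0.16). Tap1 and Tap2 had r = 0.95 in spleen and -0.41 in peripheral lymph node. Psmb8 and Psmb9 had r = 0.90 in spleen and -0.36 in thymus. Psmb9 and Nlrc5 were positive in all 4 tissues, from 0.63 to 0.81. So were other pairs, among them Tap1 and Tapbp (0.39 to 0.85) and Psmb10 and Tap2 (0.30 to 0.80). These are descriptions over arrays that share their tissue, the genotypes and any difference in RNA quality.

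The 5 genes outside the lists most like the mean of the 9 over all 32 arrays were Sdf4 (r = 0.96), the interferon-inducible guanylate binding protein Gbp2 (0.96), the lipid carrier Apoe (0.95), the T cell costimulator Icos (0.95) and the deubiquitinase Otulin (0.95). Since the tissues form separate groups, the values within a tissue are the ones to read. Gbp2 stayed between 0.80 and 0.87 in the 4 tissues (8 arrays each), whereas Sdf4 fell to -0.17 and Otulin to -0.72 in peripheral lymph node.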

How the data were processed

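The series matrix of the study holds 1 intensity per probe set and array, on a linear scale, as deposited; per the labels' protocols, biotin labelled total RNA went onto Affymetrix arrays. How the intensities were computed or scaled is not given in the sources used here. Between 14.9% and 18.4% of the deposited intensities on an array were at or below 0, and array medians ran from 30.3 to 73.7. Arrays give no read depth, so the number of mice limits the precision.

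Values are log2 of the intensity plus 16, after negative intensities were raised to 0. The 8 arrays of a tissue were quantile normalized for the genotype comparisons and all 32 arrays for levels and tissue comparisons. The 64 control probe sets took part in the normalization and were left out after it. Probe sets above the 40th percentile of the mean were kept (27022 of 45037). The tests were limma 3.58.1 in R 4.3.3 with Benjamini-Hochberg adjustment over all probe sets kept and a threshold of 0.05. The fits were also run on simulated arrays, drawn independently, where recovery as calls was required only for the largest added changes. That check does not speak to differences as small as those between genotypes here. Genotypes were compared within each tissue, tissues within each genotype with mouse as a block, since each mouse gave all 4 tissues, and differences of the transgene's effect on each mouse's difference between tissues. Symbols came from the array's annotation table, where 34945 probe sets had 1 symbol, 932 several and 9160 none, and no probe set with several symbols held a member. Levels are not compared between probe sets. The figures used matplotlib 3.10.9.

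The members and lists were chosen with earlier results of these data known. Named genes are all member probe sets, up to 3 genes per companion list with the smallest p, Tnfsf8, and the 5 genes most like the members' mean. H2-D1, H2-K1, Irf1, Tapbpl, H2-M3 and Socs1, where they stand outside that rule, were named after their values were seen. Alternatives were pseudocounts of 1 and 64, no normalization, a common median, no filter or one at the 60th percentile, 1 fit over all arrays, a trend with robust moderation, replicate blocks, and leaving out each mouse or the 3 arrays with the highest pancreas or muscle markers. Leaving out the spleen of wild type mouse 4 and splitting mice by the Actb ratio were added after seeing the data. Mice are the replicates.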

Additional observations from a re-analysis of the deposited data

Results flagged for a closer look

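In groups of 4 arrays, the array at either end was set against the others by Dixon's ratio of its gap to the group's range and held to the 95% critical value. Of 72 groups of a gene, tissue and genotype, 4 held such an array, and chance gives about 1 in 20. Psmb9 stood at 11.49 in the peripheral lymph node of transgenic mouse 3, above 11.24 to 11.27 in the other 3 (ratio 0.851). Psmb9 stood at 10.97 in the mesenteric lymph node of transgenic mouse 1, below 11.29 to 11.34 in the others (ratio 0.883), on an array whose Actb ratio was 3.10 against 1.59 to 1.75 in the other transgenic mesenteric lymph nodes. That array also had the highest mean log2 level of exocrine pancreas markers among them (12.72, against 5.11, 12.60 and 5.40 in mice 2, 3 and 4). Tapbp stood at 11.87 in the mesenteric lymph node of wild type mouse 3, above 11.72 to 11.73 in the others (ratio 0.885). Nlrc5 stood at 9.74 in the mesenteric lymph node of wild type mouse 2, below 10.06 to 10.12 in the others (ratio 0.839), and this was the wild type array with the highest exocrine pancreas markers. The part of RNA quality or of pancreas transcripts in these values was not tested.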

How the results depend on the processing

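No transgenic comparison of the members gained a call under any alternative except spleen, where a single fit over all arrays gave 1 (Psmb9). Same-numbered mice of the 2 genotypes did not deviate together in every pair of any tissue (correlations over 0.1 in 2, 1, 3 and 2 of 4 pairs), so numbers were not taken as pairs. A replicate block on the number left the count of calls at 0 in all 4 tissues, and dropping the mouse block left the tissue counts as they were. Without normalization the wild type counts were 1 for spleen and 5 for thymus against peripheral lymph node, 0 for spleen and 4 for thymus against mesenteric lymph node, and 4 for thymus against spleen; the transgenic counts were 1 for spleen against mesenteric lymph node and 4 for thymus against spleen. Under a common median, wild type thymus against spleen had 5, and transgenic spleen had 5 against peripheral and 7 against mesenteric lymph node. Leaving out each mouse in turn gave 5 to 7 for wild type thymus against spleen, 1 to 2 for transgenic spleen against peripheral lymph node (1 without mouse 1 or mouse 2) and 1 to 2 against mesenteric lymph node (1 without mouse 1 or mouse 4). Fewer mice were fitted there, and the cause of the other shifts was not tested. B2m in spleen against peripheral lymph node turned to -0.20 under a common median, to -0.0035 without the spleen of mouse 4, and ran from -0.071 to 0.084 as each mouse was left out (-0.071 without mouse 3, -0.0030 without mouse 4), and Psmb10 in transgenic against wild type peripheral lymph node turned to 0.029 without normalization; none of these passed the test. With 4 mice a group, small differences are beyond these arrays.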
